A study of Mus musculus with 6 samples.

Results

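Transcripts of 9 receptor genes through which neuropeptides, catecholamines, leptin and glucocorticoids act on cells were examined in alveolar macrophages (AMs), the resident macrophages of the lung airspaces. The genes were Calcrl, Ramp1, Ramp2 and Ramp3 (receptors of calcitonin gene-related peptide, CGRP, and adrenomedullin), Adra2a and Adrb1 (adrenergic receptors), Vipr1 (a receptor of vasoactive intestinal peptide, VIP), Lepr (the leptin receptor) and Nr3c1 (the glucocorticoid receptor). They were chosen by gene symbol from the 24341 genes of the deposited expression table, and some were known to differ between the genotypes in these same samples, so their difference between genotypes is described and not tested. AMs were taken from the bronchoalveolar lavage (BAL) of naïve female mice 6 to 10 weeks old on the C57BL/6 background. RNA of CD44+/+ AMs and of CD44-/- AMs, which lack the hyaluronan receptor CD44, was sequenced in 3 samples per genotype. Each sample pooled BAL from several mice, in pools of unequal size, which the methods list in an order but without naming replicate numbers, so that replicate error was the spread between pools, and the deletion was carried by the whole CD44-/- mouse and not by AMs alone. Expression was given as FPKM, fragments counted relative to transcript length and to all mapped fragments of the sample, a scale on which levels of different genes can be set side by side.

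CGRP is released by sensory nerves, and noradrenaline by sympathetic nerves. The receptor for CGRP is built from the calcitonin receptor-like protein Calcrl and the partner Ramp1, whereas Calcrl with Ramp2 or Ramp3 binds adrenomedullin. Calcrl, Adrb1 and Vipr1 act through the G protein Gs, which raises the intracellular signal cAMP and activates protein kinase A, while Adra2a acts through Gi, which lowers cAMP. Lepr is a cytokine receptor that signals through the kinase Jak2 and the transcription factor Stat3. Nr3c1 is itself a transcription factor, which binds corticosterone in the cytoplasm and then enters the nucleus, and glucocorticoids and cAMP signals are both known to restrain macrophage inflammatory responses.

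The cells had the transcripts of AMs in both genotypes. Of 13 AM marker genes listed, 11 were found in the table, and all 11 exceeded a mean of 0.5 FPKM. The sums were 15653 to 18070 FPKM in CD44+/+ AMs and 14778 to 18924 FPKM in CD44-/- AMs, and most of each was Chil3 (10300 to 14200 FPKM over all samples). Krt79 (265 to 314 against 203 to 225 FPKM) and Mrc1 (524 to 535 against 493 to 510 FPKM) were lower in CD44-/- AMs without overlap. Itgax was higher without overlap (435 to 460 against 466 to 495 FPKM), and the other markers overlapped. Over all genes 11.6% did not overlap. Endothelial cells, in which Calcrl and Ramp2 are abundant, were scarcely represented, since 1 of 10 endothelial markers (Vwf, at 12.8 to 17.2 FPKM) exceeded 0.5 FPKM and Cdh5 and Emcn were at 0 in every sample (sums of 15.2 to 17.4 FPKM and 12.9 to 16.8 FPKM). Cd44 fell from 540, 535 and 527 FPKM in the CD44+/+ samples to 54.7, 54.5 and 51.4 FPKM in the CD44-/- samples (log2 difference -3.32 ± 0.05, standard error, adjusted p = 4.19e-09), or 10.0% of the CD44+/+ mean. Relative depth ranged from 0.814 to 1.05 times that of CD44+/+ replicate 1. In RNA from whole samples, fewer cells with a transcript and less of it per cell cannot be told apart.

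**Figure D1:**
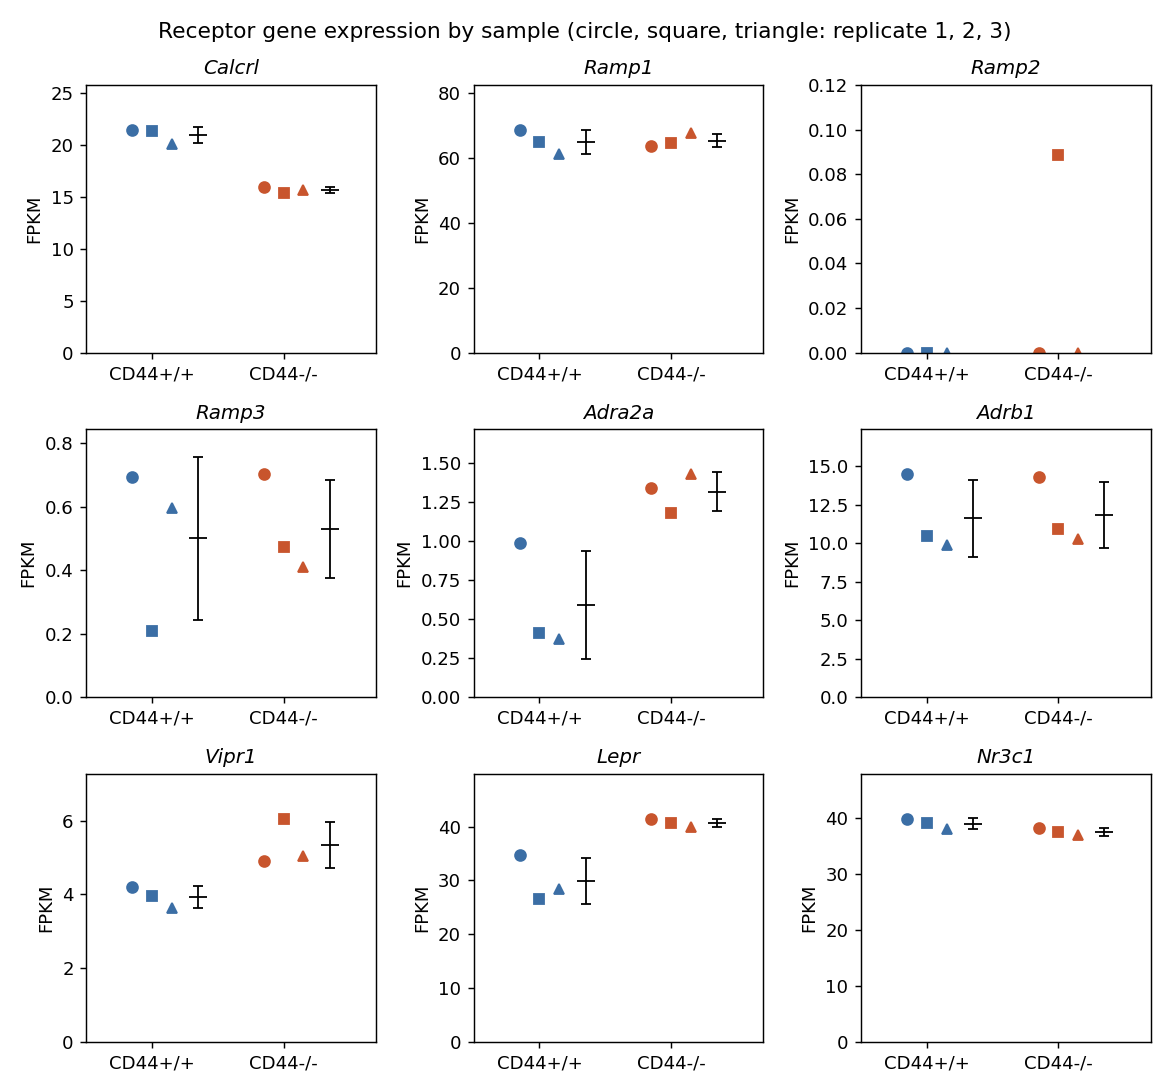
Expression in FPKM (vertical axis, from 0, a scale of its own in each panel) of the 9 receptor genes in CD44+/+ AMs (blue) and CD44-/- AMs (orange). Each point is a sample, with circle, square and triangle for replicates 1, 2 and 3, and the bars beside them give the mean ± SD (n = 3), left out for Ramp2. All CD44-/- points lie below the CD44+/+ points for Calcrl and above them for Adra2a, Vipr1 and Lepr, while Ramp1, Ramp3, Adrb1 and Nr3c1 overlapped.

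The 9 genes covered a wide range of levels. In CD44+/+ AMs the order of the means was Ramp1, Nr3c1, Lepr, Calcrl, Adrb1, Vipr1, Adra2a, Ramp3 and Ramp2. Samples of neighbouring genes in this order did not overlap down to Vipr1, whereas Adra2a (0.371 to 0.987 FPKM) and Ramp3 (0.210 to 0.695 FPKM) did. In CD44-/- AMs Lepr (39.9 to 41.5 FPKM) stood above Nr3c1 (36.9 to 38.3 FPKM), the reverse of their order in CD44+/+ AMs, and Adra2a (1.18 to 1.43 FPKM) no longer overlapped Ramp3 (0.410 to 0.703 FPKM). Ramp1 lay at the 88.1 percentile of the 10800 genes that averaged 0.5 FPKM or more, and Nr3c1 and Lepr lay at the 80.0 and 78.2 percentiles. Calcrl (62.2) and Adrb1 (48.8) were in the middle of the range, Vipr1 (25.5) was lower, and Adra2a (5.24) and Ramp3 (0.25) were near its bottom. Ramp3, with a mean of 0.514 FPKM over the 6 samples, was just inside the limit of 0.5 FPKM set for the comparison, and Ramp2, with 0.0147 FPKM, was outside it, so that 8 of the 9 genes were compared.

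Among the CGRP receptor genes, Calcrl, the ligand-binding subunit, was expressed in AMs together with Ramp1. Calcrl had per-sample values of 21.5, 21.4 and 20.1 FPKM in CD44+/+ AMs, against 16.0, 15.4 and 15.7 FPKM in CD44-/- AMs. Every CD44-/- sample was thus below every CD44+/+ sample, and the spread within each genotype was small beside the gap. The mean was 21.0 ± 0.781 FPKM for CD44+/+ and 15.7 ± 0.30 FPKM for CD44-/- AMs (SD, n = 3 each), or 74.8% of the CD44+/+ level. On the scale log2(FPKM + 0.1), which is used for all log2 differences (CD44-/- minus CD44+/+), the difference was -0.42 (standard error 0.06). Calcrl lies on chromosome 2 of mm10 (84330627 to 84425266, minus strand, 16 exons in its longest coding transcript), 18.4 Mb from Cd44.

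Ramp1, which makes Calcrl a CGRP receptor, was the most abundant of the 9 genes in every sample. It had per-sample values of 68.8, 65.0 and 61.3 FPKM in CD44+/+ AMs, against 63.8, 64.7 and 67.7 FPKM in CD44-/- AMs. These values overlapped, and the means, 65.1 ± 3.75 FPKM and 65.4 ± 2.04 FPKM (SD, n = 3 each), lay closer together than the samples of either genotype (log2 difference 0.01, standard error 0.06). Ramp1 lies on chromosome 1 (91179822 to 91225196, plus strand).

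The adrenomedullin partners Ramp2 and Ramp3 were at or near the limit of detection. Ramp2 was listed at 0 in 5 of the 6 samples and at 0.0884 FPKM in CD44-/- replicate 2. This gene (chromosome 11, 101246334 to 101248250) shares part of its span with Vps25 on the same strand, so reads there can be assigned to either. Ramp3 had per-sample values of 0.695, 0.210 and 0.595 FPKM in CD44+/+ AMs, against 0.703, 0.473 and 0.410 FPKM in CD44-/- AMs. The genotypes overlapped, with CD44+/+ replicate 2 below all other samples (0.50 ± 0.256 and 0.529 ± 0.154 FPKM, SD, n = 3 each, log2 difference 0.15, standard error 0.40). Ramp3 lies on chromosome 11 from 6650148 to 6677475, and Gm11978 overlaps it on the other strand.

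Within a sample, Ramp1 held 98.9% to 99.7% of the summed FPKM of the 3 RAMP genes. The share was 99.2 ± 0.381% for CD44+/+ and 99.1 ± 0.244% for CD44-/- AMs (SD, n = 3 each), with overlap. Ramp1 transcripts outnumbered those of Calcrl per length in every sample. The ratio of Ramp1 to Calcrl was 3.20, 3.04 and 3.05 by sample in CD44+/+ AMs, against 3.99, 4.20 and 4.31 in CD44-/- AMs, without overlap. Its mean was 3.10 ± 0.0902 for CD44+/+ and 4.17 ± 0.165 for CD44-/- AMs (SD, n = 3 each), and since Ramp1 overlapped between genotypes, the ratio followed Calcrl. Ramp3 was at most 0.0439 of the Calcrl level in any sample.

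**Figure D2:**
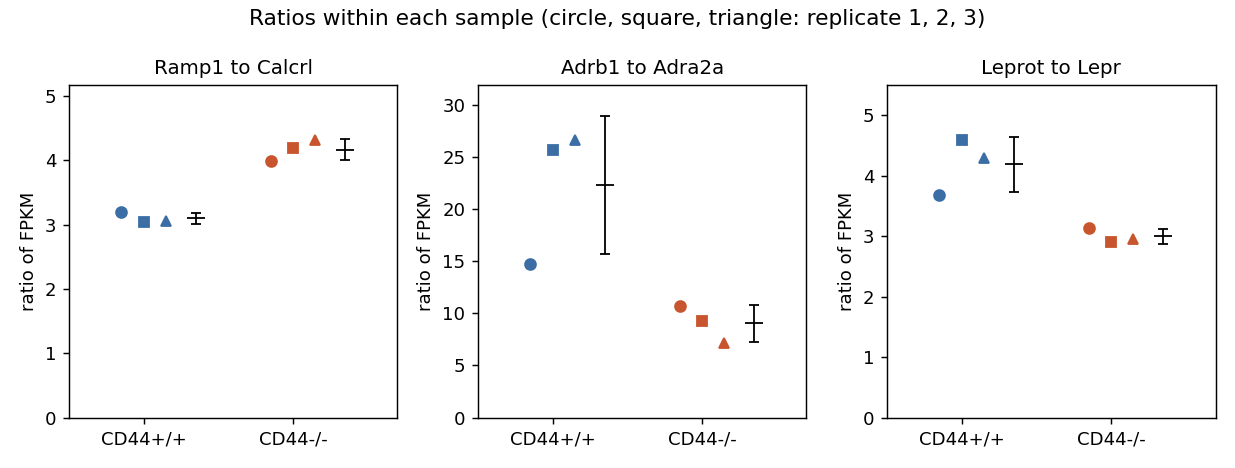
Ratios of FPKM within each sample (vertical axes, from 0) for Ramp1 to Calcrl, Adrb1 to Adra2a and Leprot to Lepr, with CD44+/+ AMs in blue and CD44-/- AMs in orange. Circle, square and triangle mark replicates 1, 2 and 3, and bars give the mean ± SD (n = 3). Ramp1 to Calcrl was higher and Adrb1 to Adra2a and Leprot to Lepr were lower in every CD44-/- sample than in the CD44+/+ samples.

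Transcripts of the ligands were at or near 0 in the AMs themselves. The CGRP genes Calca and Calcb, the adrenomedullin genes Adm and Adm2, the amylin gene Iapp and the calcitonin receptor gene Calcr had at most 0.151 FPKM in any sample, and Iapp was at 0 in all. Of the 7 listed genes of CGRP and adrenomedullin signalling outside the RAMP and Calcrl genes, only Crcp, a CGRP receptor component that couples it to the G protein, passed the limit of 0.5 FPKM, with 22.6 ± 1.33 FPKM and 24.3 ± 1.11 FPKM (SD, n = 3 each). Its log2 difference was 0.10 (standard error 0.07, adjusted p = 0.823), and 0.055 without CD44+/+ replicate 3 and 0.135 without CD44-/- replicate 2.

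Of the adrenergic receptor genes, Adra2a, the inhibitory α2A receptor, was low in all samples and differed most in relative size. It had per-sample values of 0.987, 0.409 and 0.371 FPKM in CD44+/+ AMs, against 1.34, 1.18 and 1.43 FPKM in CD44-/- AMs. All CD44-/- samples were above all CD44+/+ samples, but CD44+/+ replicate 1 lay nearer to the CD44-/- samples than to the other CD44+/+ samples. The mean was 0.589 ± 0.345 FPKM for CD44+/+ and 1.32 ± 0.127 FPKM for CD44-/- AMs (SD, n = 3 each), which is 224% of the CD44+/+ level. The log2 difference was 1.15 (standard error 0.32), and at this level it depended on the value added before the log, falling to 0.56 with 1 FPKM. The longest coding transcript of Adra2a has a single exon, on chromosome 19 (54045182 to 54048982, plus strand).

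Adrb1, the stimulatory β1 receptor, did not follow genotype. It had per-sample values of 14.5, 10.5 and 9.86 FPKM in CD44+/+ AMs, against 14.3, 10.9 and 10.3 FPKM in CD44-/- AMs. In each genotype replicate 1 was highest, and same-numbered samples of the genotypes were close to each other. The means were 11.6 ± 2.51 FPKM and 11.8 ± 2.16 FPKM (SD, n = 3 each), with a log2 difference of 0.03 and a standard error of 0.16 that fell to 0.06 with the replicate number as a block. Adrb1, like Adra2a, has a single exon on chromosome 19 (56722372 to 56724862, plus strand).

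Adrb1 exceeded Adra2a in every sample, 22.3 ± 6.62 times for CD44+/+ and 9.04 ± 1.74 times for CD44-/- AMs (SD, n = 3 each). The ratios were 14.7, 25.7 and 26.6 against 10.7, 9.24 and 7.20, without overlap.

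The adrenergic receptor genes Adra1a, Adra1b, Adra1d, Adra2b, Adra2c and Adrb3 had at most 0.0629 FPKM, and 4 of them were at 0 in all samples. Of the 13 genes listed for adrenergic receptors and their desensitisation, 7 were compared, with 1 higher and 6 lower in CD44-/- AMs and a median log2 difference of -0.09 against 0.01 over all 10800 genes, and none had an adjusted p under 0.05. Adrbk1, which encodes the kinase GRK2 that turns off active receptors, was the most abundant with 94.4 ± 5.45 and 93.7 ± 5.41 FPKM (SD, n = 3 each, log2 difference -0.01, adjusted p = 0.989). Arrb2, an arrestin that uncouples phosphorylated receptors, had 71.1, 71.1 and 68.6 FPKM against 66.3, 66.8 and 67.4 FPKM, without overlap but with a log2 difference of only -0.07 (adjusted p = 0.821). Grk6 (-0.09, adjusted p = 0.867), Grk5 (-0.10, adjusted p = 0.939) and Arrb1 (-0.13, adjusted p = 0.966) overlapped. The list median was -0.03 without CD44-/- replicate 3 and -0.06 without CD44+/+ replicate 1. Of its genes, Grk6 was at -0.03 without CD44-/- replicate 3, Grk5 ran from -0.20 without CD44-/- replicate 1 to -0.04 without CD44-/- replicate 3, and the difference of Arrb1 changed sign without CD44-/- replicate 3 (0.05) and without CD44+/+ replicate 3 (0.02).

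Vipr1 encodes VPAC1, a receptor shared by VIP and the related peptide PACAP. It had per-sample values of 4.21, 3.96 and 3.63 FPKM in CD44+/+ AMs, against 4.91, 6.06 and 5.04 FPKM in CD44-/- AMs. The genotypes did not overlap, and CD44-/- replicate 2 was the highest sample. The mean was 3.93 ± 0.291 FPKM for CD44+/+ and 5.34 ± 0.630 FPKM for CD44-/- AMs (SD, n = 3 each), which is 136% of the CD44+/+ level (log2 difference 0.43, standard error 0.11). CD44-/- replicate 2 also had the highest sum of erythroid markers, 56.5 FPKM against 2.12 to 17.3 FPKM in the other samples, with 3 of the 5 markers found above a mean of 0.5 FPKM. Without this sample the Vipr1 difference was 0.33, and a part of erythroid RNA in it was not tested. Vipr1 lies on chromosome 9 (121642716 to 121672954, plus strand, 13 exons).

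The other genes of the VIP and PACAP system were below the limit. Vip and Adcyap1, the genes of both ligands, were at 0 in every sample. The receptor genes Vipr2 and Adcyap1r1 had at most 0.0943 FPKM, so that Vipr1 was the only receptor of this family above 0.5 FPKM among those listed.

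Lepr, which binds the adipose hormone leptin, was among the more abundant of the 9 transcripts. Lepr had per-sample values of 34.8, 26.6 and 28.4 FPKM in CD44+/+ AMs, against 41.5, 40.6 and 39.9 FPKM in CD44-/- AMs. The genotypes did not overlap, and replicate 1 was highest in each. The mean was 29.9 ± 4.29 FPKM for CD44+/+ and 40.7 ± 0.807 FPKM for CD44-/- AMs (SD, n = 3 each), which is 136% of the CD44+/+ level, as for Vipr1 (log2 difference 0.45, standard error 0.09). The annotation gives 4 coding transcripts for Lepr (chromosome 4, 101717407 to 101815354, plus strand), and the value per gene does not separate the long signalling form from the short forms.

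Leptin itself (Lep) was at 0 in all samples. Leprot, a neighbouring gene whose product holds back Lepr from the cell surface, had 124 ± 3.46 FPKM for CD44+/+ and 122 ± 6.93 FPKM for CD44-/- AMs (SD, n = 3 each), with overlap (log2 difference -0.02, adjusted p = 0.973). The ratio of Leprot to Lepr was 3.68, 4.59 and 4.30 by sample in CD44+/+ AMs, against 3.13, 2.91 and 2.96 in CD44-/- AMs, without overlap. Of the 11 genes listed for leptin signalling 10 were compared, with 5 higher and 5 lower in CD44-/- AMs, a median of 0.01, and no gene whose genotypes did not overlap. Stat3, which carries the Lepr signal to the nucleus, had 65.9 ± 1.83 and 65.4 ± 1.80 FPKM (SD, n = 3 each, log2 difference -0.01, adjusted p = 0.989), and the phosphatase gene Ptpn1, which dampens Jak2, had 86.9 ± 4.41 and 88.4 ± 9.26 FPKM (0.02, adjusted p = 0.989). Socs3, a feedback inhibitor induced by Stat3, had a difference of 0.21 (standard error 0.14, adjusted p = 0.850), which was 0.10 without CD44+/+ replicate 1 and 0.097 without CD44-/- replicate 2. The differences of Irs2 and Leprotl1 were -0.12 (adjusted p = 0.822) and 0.07 (adjusted p = 0.925). Irs2 ran from -0.19 without CD44-/- replicate 2 to -0.09 without CD44-/- replicate 1. Leprotl1 ran from 0.03 without CD44+/+ replicate 3 to 0.12 without CD44+/+ replicate 1.

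Nr3c1, the glucocorticoid receptor, had per-sample values of 39.9, 39.1 and 38.0 FPKM in CD44+/+ AMs, against 38.3, 37.5 and 36.9 FPKM in CD44-/- AMs. The genotypes overlapped by a narrow margin, and in each of them replicate 1 was highest and replicate 3 lowest. The means were 39.0 ± 0.954 FPKM and 37.6 ± 0.702 FPKM (SD, n = 3 each), so that CD44-/- AMs had 96.3% of the CD44+/+ level (log2 difference -0.05, standard error 0.05). Nr3c1 varied least between samples among the 9 genes relative to its level and exceeded Nr3c2, the mineralocorticoid receptor that also binds corticosterone, 25.9 to 47.2 times. Nr3c1 lies on chromosome 18 (39410545 to 39487245, minus strand).

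**Figure D3:**
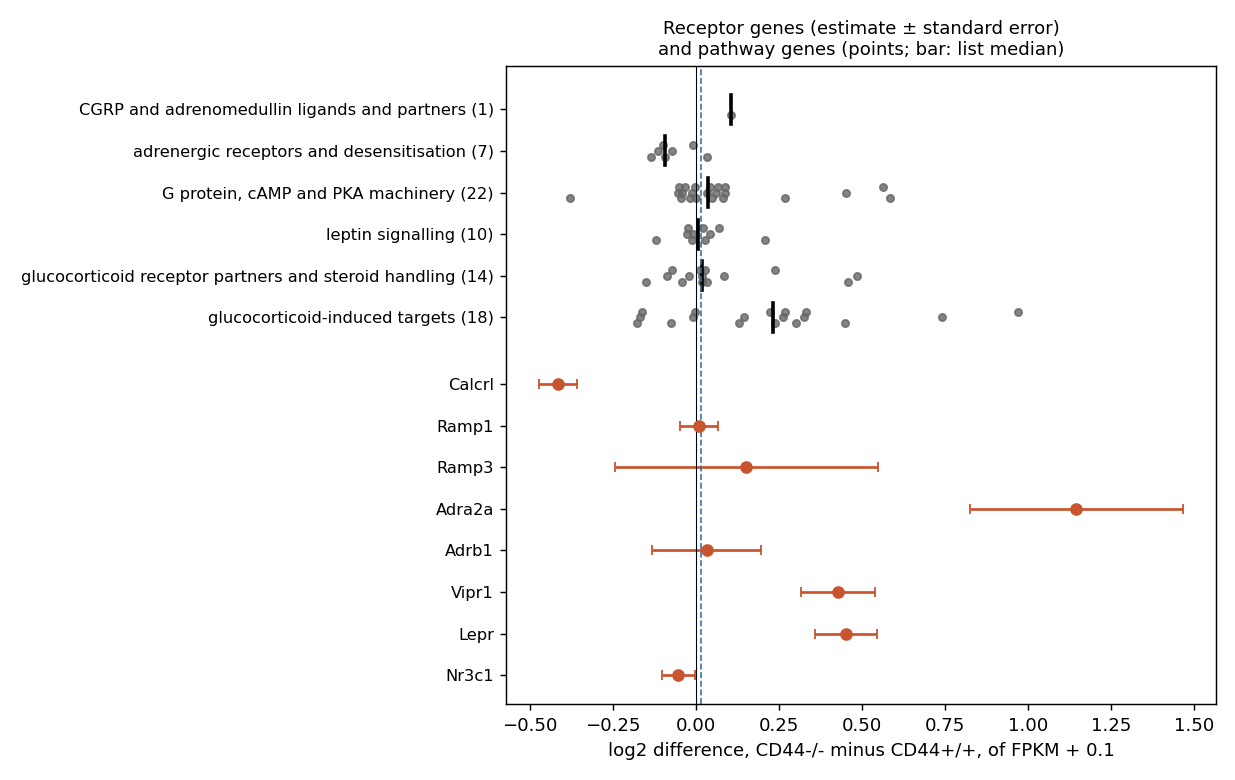
Log2 difference between CD44-/- and CD44+/+ AMs (horizontal axis, log2 of FPKM + 0.1) for the 8 receptor genes compared (orange, estimate ± standard error) and for the tested genes of 6 pathway lists (grey points, number of genes in brackets, black bar at the list median). The blue dashed line marks the median of all genes tested, 0.01. Calcrl lies at -0.42 and Adra2a, Vipr1 and Lepr at 1.15, 0.43 and 0.45, while the medians of the lists lie between -0.09 and 0.23.

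Across the 8 receptor genes compared, 4 did not overlap between genotypes, 3 of them higher and 1 lower in CD44-/- AMs, where 11.6% of all genes did not overlap (6.75% higher and 4.88% lower). None of the 8 had an adjusted p under 0.05 by limma, against 0.111% of all genes (12 genes, 8 higher and 4 lower), none did with the replicate number as a block (0.0833% of all genes), and 4 had an unadjusted p under 0.05, against 7.69% of all genes. Nothing was read from these counts, since the genes were chosen with this comparison known. The sum of alveolar type 1 cell markers, of which 6 of 8 exceeded a mean of 0.5 FPKM and none was at 0 throughout, ran from 61.0 to 67.3 FPKM in CD44+/+ AMs against 52.6 to 58.7 FPKM in CD44-/- AMs, and this order was that of Cav1 (38.0 to 44.0 against 27.2 to 32.9 FPKM). Without Cav1, a sum formed after the data were seen, the sum of the 7 other markers had the opposite order, from 20.5 to 23.3 FPKM against 25.5 to 26.4 FPKM, although 5 of the 7 (Hopx, Aqp5, Pdpn, Akap5 and Rtkn2) overlapped between genotypes and the log2 differences of Hopx (-0.12) and Aqp5 (-0.15) were negative. Of the alveolar type 2 cell markers, 6 of 9 exceeded a mean of 0.5 FPKM and none was at 0 throughout. Napsa had the highest mean, with 47.3 to 61.7 FPKM over all samples, although Sftpc exceeded it in CD44-/- replicate 3. Napsa overlapped between genotypes, as did Abca3 with 26.4 to 27.8 FPKM against 23.8 to 27.9 FPKM. Of the others, Sftpb had 1.26 to 2.13 FPKM against 2.32 to 6.53 FPKM and Sftpc had 6.83 to 15.5 FPKM against 12.4 to 74.2 FPKM, while the sum of the list overlapped (91.2 to 106 FPKM against 94.4 to 169 FPKM). Markers other than the highest of each list were named after their values were seen. The part of these cells in the differences of Calcrl, Adra2a, Vipr1 and Lepr was not tested.

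The G protein genes Gnas and Gnai2, whose products carry receptor signals into the cell, were expressed above any of the 9 receptor genes. Gnas, which encodes the Gs α subunit, had 405 ± 18.9 FPKM for CD44+/+ and 396 ± 6.50 FPKM for CD44-/- AMs (SD, n = 3 each, log2 difference -0.03, adjusted p = 0.968). Gnai2, an α subunit of Gi, had 497 ± 19.9 and 496 ± 12.2 FPKM (SD, n = 3 each, difference -0.0044, adjusted p = 0.994). Of the 33 genes listed for G proteins, cAMP and protein kinase A, 22 were compared, with 12 higher and 10 lower in CD44-/- AMs and a median of 0.04, and none had an adjusted p under 0.05 while 2 had an unadjusted p under 0.05, against 7.69% of all genes. These were Crem, a transcription factor induced by cAMP, with 3.19, 2.69 and 2.85 FPKM against 5.46, 3.94 and 3.76 FPKM (log2 difference 0.56, standard error 0.15, adjusted p = 0.367), and Prkacb, a catalytic subunit of protein kinase A named after its values were seen, with 18.4 ± 1.45 against 22.2 ± 1.12 FPKM (SD, n = 3 each, 0.27, standard error 0.07, adjusted p = 0.369). Neither overlapped between genotypes. Sik1 (0.58, standard error 0.39, adjusted p = 0.848) and Pde4b (0.45, standard error 0.24, adjusted p = 0.757) overlapped. Both are genes that cAMP is known to induce. Each was higher in CD44-/- AMs in 3 of 3 same-numbered pairs. So were genes of the list with small differences, such as Crtc3 (0.04) and Prkar2a (0.09), named after their values were seen. The share of all genes with this order was not counted. With the replicate number as a block, the adjusted p by limma was 0.191 for Sik1, 0.236 for Pde4b and 0.215 for Crem. Pde4b was at 0.29 without CD44+/+ replicate 2 or CD44-/- replicate 3, at 0.31 without CD44-/- replicate 1 and at 0.75 without CD44-/- replicate 2, and Sik1 ran from 0.21 without CD44+/+ replicate 2 to 0.99 without CD44-/- replicate 2. The regulatory subunit gene Prkar2b had 123 ± 9.81 and 123 ± 10.7 FPKM (SD, n = 3 each).

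Among the 15 genes listed for partners of the glucocorticoid receptor and steroid handling, 14 were compared, with 9 higher and 5 lower and a median of 0.02. None had an adjusted p under 0.05, 3 had an unadjusted p under 0.05 (7.69% of all genes did), and 4 did not overlap (11.6% of all genes). Hsp90ab1, a chaperone that holds the receptor ready for its ligand, had 690 ± 22.6 FPKM for CD44+/+ and 622 ± 30.8 FPKM for CD44-/- AMs (SD, n = 3 each, log2 difference -0.15, standard error 0.05, adjusted p = 0.541). Hsd11b1, whose enzyme regenerates active corticosterone inside cells, had 1.06, 0.891 and 0.776 FPKM against 1.47, 1.21 and 1.23 FPKM (0.48, standard error 0.18, adjusted p = 0.571). Abcb1a, which encodes a steroid export pump, had 0.481, 0.538 and 0.520 FPKM against 0.828, 0.647 and 0.759 FPKM (0.46, standard error 0.22, adjusted p = 0.694). With 1 FPKM added before the log in place of 0.1, the differences of these low genes were 0.27 for Hsd11b1 and 0.20 for Abcb1a. Fkbp5, a co-chaperone that lowers the ligand affinity of the receptor and is itself induced by it, had 30.7 ± 2.51 against 36.2 ± 2.56 FPKM (SD, n = 3 each, 0.24, standard error 0.08, adjusted p = 0.484). Hspa8 (0.08, adjusted p = 0.968) and Fkbp4 (-0.09, adjusted p = 0.819) overlapped, and Hspa8 was at -0.04 without CD44-/- replicate 1 and at 0.21 without CD44+/+ replicate 1.

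Glucocorticoid-induced target genes had the highest list median, 0.23 against 0.01 over all genes, but the list held genes that varied widely within a genotype, and its median was 0.12 without CD44+/+ replicate 2, 0.13 without CD44+/+ replicate 1 and 0.14 without a filter on low values. Of 22 listed, 18 were compared, with 12 higher and 6 lower in CD44-/- AMs. None had an adjusted p under 0.05, and 4 had an unadjusted p under 0.05, where 7.69% of all genes did. The same 4 were without overlap, where 11.6% of all genes were. They were Dusp1, Fkbp5, Klf9 and, lower in CD44-/- AMs, Glul, of which Klf9 and Glul were named after their values were seen. Dusp1, which encodes a phosphatase of MAP kinases, had 23.4, 13.2 and 29.8 FPKM against 36.5, 31.2 and 61.1 FPKM (log2 difference 0.97, standard error 0.31, adjusted p = 0.476). Tsc22d3, which encodes the anti-inflammatory protein GILZ, had 189, 67.9 and 141 FPKM against 235, 127 and 284 FPKM (0.74, standard error 0.39, adjusted p = 0.746). The clock gene Per1 had 16.4, 7.19 and 11.3 FPKM against 21.1, 9.19 and 17.5 FPKM (0.45, standard error 0.35, adjusted p = 0.887), and both genes overlapped between genotypes. Tsc22d3, Per1 and Dusp1 were each higher in CD44-/- AMs in 3 of 3 same-numbered pairs, as was Hspa8 with its difference of 0.08. With the replicate number as a block the standard errors were 0.13 for Tsc22d3 (adjusted p = 0.170) and 0.07 for Per1 (adjusted p = 0.167). That of Dusp1 was 0.11 (adjusted p = 0.0832 by limma). Without CD44+/+ replicate 2 the log2 difference was 0.64 for Dusp1 (0.68 without CD44-/- replicate 3), 0.32 for Tsc22d3 and 0.14 for Per1, and that of Cebpb was -0.09, or -0.12 without CD44-/- replicate 1. Other samples left out raised the differences. Without CD44+/+ replicate 1 they were 1.06 for Tsc22d3, 0.73 for Per1 and 0.73 for Cebpb. Without CD44-/- replicate 2 they were 1.17 for Dusp1, 1.08 for Tsc22d3, 0.80 for Per1 and 0.51 for Cebpb. The most abundant of the list were Mt1 (log2 difference 0.27, adjusted p = 0.774), Anxa1 (-0.01, adjusted p = 0.989) and Cebpb (0.26, adjusted p = 0.970). Mt1 moved to 0.097 without CD44+/+ replicate 1 and to 0.43 without CD44+/+ replicate 3. Cebpb was also higher in CD44-/- AMs in 3 of 3 same-numbered pairs, and its standard error under the block was 0.07 (adjusted p = 0.352 by limma).

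Over all 7 pathway lists, with each gene counted once, 71 of 104 genes were compared and 33 were below the limit. None of the 71 had an adjusted p under 0.05 by limma, against 0.111% of all genes. Of these 71 genes 8 had an unadjusted p under 0.05 (7.69% of all genes), 10 did not overlap (7 higher and 3 lower, against 11.6% of all genes), and the median log2 difference was 0.02.

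**Figure D4:**
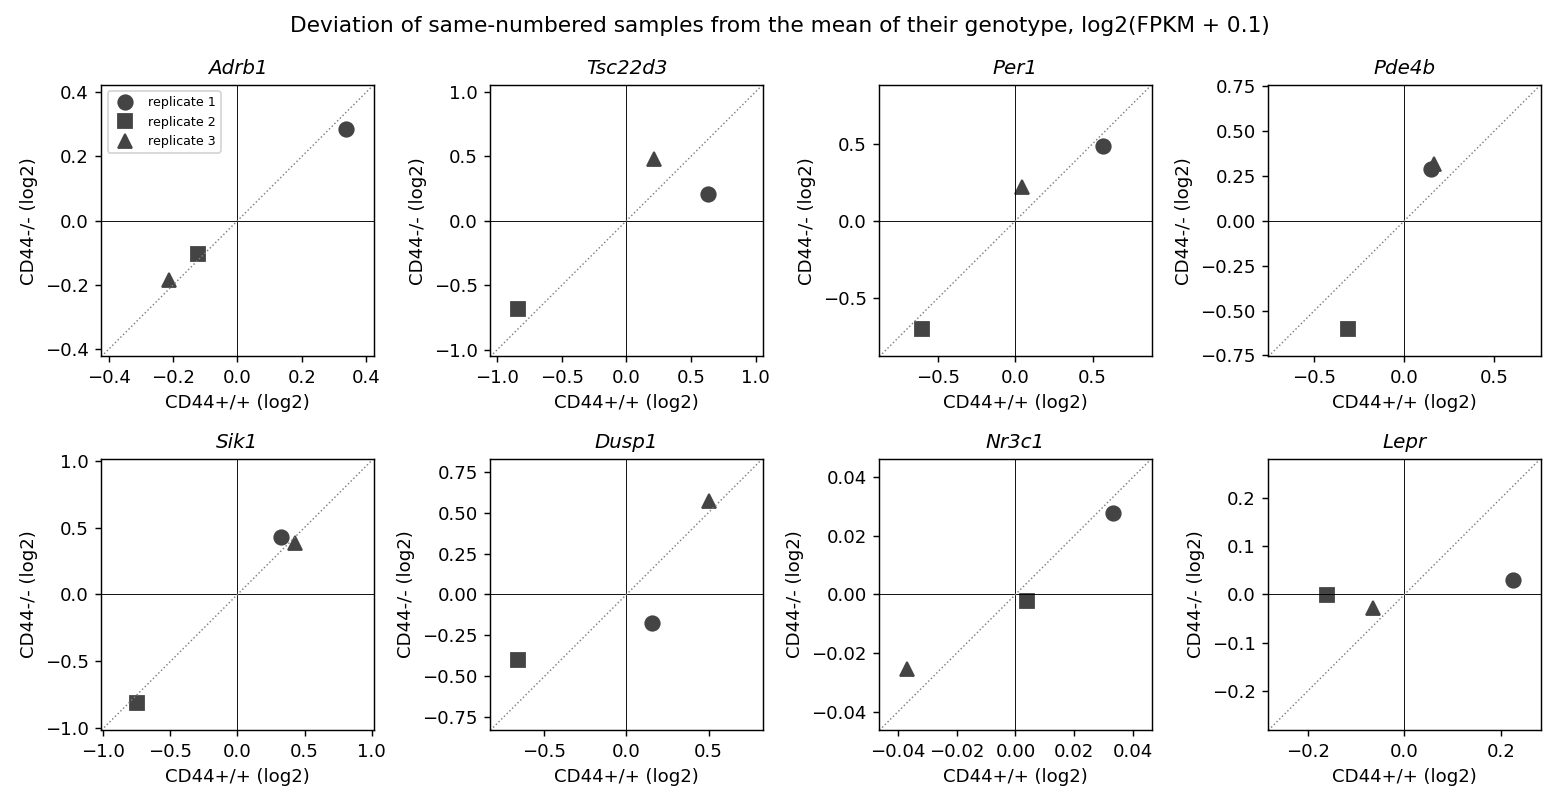
Deviation of each sample from the mean of its genotype, in log2(FPKM + 0.1), for the CD44+/+ sample (horizontal axis) and the CD44-/- sample (vertical axis) of the same replicate number, with axes scaled by gene and a dotted line at equal deviation. Circle, square and triangle mark replicates 1, 2 and 3. Adrb1 and Nr3c1 were highest in replicate 1 of both genotypes, whereas Tsc22d3, Per1, Pde4b, Sik1 and Dusp1 were lowest in replicate 2 of both.

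The replicate numbers are shared by both genotypes, so variation along them was also described. Of the 8 receptor genes compared, 5 (Calcrl, Ramp3, Adrb1, Lepr and Nr3c1) were highest in replicate 1 of both genotypes, as were 29.1% of all genes. This order was also that of 4 of 7 adrenergic genes, 12 of 22 cAMP pathway genes and 5 of 10 leptin genes. It was that of 6 of 14 glucocorticoid receptor partner genes and 5 of 18 glucocorticoid targets. Pool size may differ between replicate numbers, and its part in this order was not tested. In Adrb1 replicate 1 lay above the mean of its genotype by 0.34 in CD44+/+ AMs and by 0.29 in CD44-/- AMs on the log2 scale, but in Nr3c1 by only 0.03 in each. None of the 8 was lowest in replicate 2 of both genotypes, as were 10.7% of all genes. Of the compared cAMP pathway genes 9 of 22 were lowest there, and of the glucocorticoid targets 6 of 18 were. So were 4 of 14 glucocorticoid receptor partner genes, 1 of 10 leptin genes and 0 of 7 adrenergic genes. In replicate 2 Sik1 deviated from the mean of its genotype by -0.75 in CD44+/+ AMs and by -0.81 in CD44-/- AMs, and Tsc22d3 by -0.84 and -0.68. Nr3c1 stayed within 0.01 of its genotype's mean in the same samples.

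The genes with patterns most like each receptor gene were found by the root mean square difference of centred log2 values over the 6 samples. The values were not scaled, so the difference is small for genes that vary little and does not rank likeness between receptor genes. Each match was the nearest of all genes tested, and a link between the genes was not tested. Nr3c1, which varied little, was nearest to Cpsf1 (0.00740) and Plcg2 (0.00917), and Ramp1 to Cript (0.0139) and Tnfaip8 (0.0160). Calcrl was nearest to Endod1 (0.0424) and Wwtr1 (0.0535), Lepr to Ephx1 (0.0467) and Timp2 (0.0563), Vipr1 to Klhl33 (0.0469) and Arhgap19 (0.0524), and Adrb1 to Ankrd44 (0.0545) and 1810026B05Rik (0.0586). Timp2 had per-sample values of 33.5, 25.7 and 27.3 FPKM in CD44+/+ AMs, against 38.6, 42.5 and 40.5 FPKM in CD44-/- AMs, close to Lepr in level as well. The low genes Ramp3 (Plbd1, 0.191, and Zfp467, 0.194) and Adra2a (Cahm, 0.266, and Clec2l, 0.270) had the largest differences and themselves varied widely.

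Proximal promoters of the 4 genes whose genotypes did not overlap are shown, since these are the genes in which every sample of a genotype stood apart from every sample of the other. Each window holds the 250 bases before a RefSeq transcription start (GRCm38.p6), written 5′ to 3′ on the strand of the gene, and capitals mark TGACG or its reverse complement CGTCA, the core of the cAMP response element bound by CREB and CREM. Lepr has 2 annotated starts and therefore 2 windows.
Calcrl (chr2:84425267-84425516, minus strand): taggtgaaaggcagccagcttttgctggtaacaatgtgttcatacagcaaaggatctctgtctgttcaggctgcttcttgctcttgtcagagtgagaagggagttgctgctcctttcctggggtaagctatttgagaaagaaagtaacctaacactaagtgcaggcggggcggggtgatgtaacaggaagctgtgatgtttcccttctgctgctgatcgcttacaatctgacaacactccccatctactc
Adra2a (chr19:54045009-54045258, plus strand): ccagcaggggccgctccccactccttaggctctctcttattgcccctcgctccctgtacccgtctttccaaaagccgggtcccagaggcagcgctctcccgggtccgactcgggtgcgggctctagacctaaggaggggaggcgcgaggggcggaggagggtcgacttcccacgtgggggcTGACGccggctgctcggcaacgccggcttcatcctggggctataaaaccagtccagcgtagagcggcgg
Vipr1 (chr9:121642466-121642715, plus strand): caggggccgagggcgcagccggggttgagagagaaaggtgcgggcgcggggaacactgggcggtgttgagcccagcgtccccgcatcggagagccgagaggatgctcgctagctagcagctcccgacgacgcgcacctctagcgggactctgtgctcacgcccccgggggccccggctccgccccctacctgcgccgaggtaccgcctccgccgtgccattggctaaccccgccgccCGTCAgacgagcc
Lepr (chr4:101717157-101717406, plus strand): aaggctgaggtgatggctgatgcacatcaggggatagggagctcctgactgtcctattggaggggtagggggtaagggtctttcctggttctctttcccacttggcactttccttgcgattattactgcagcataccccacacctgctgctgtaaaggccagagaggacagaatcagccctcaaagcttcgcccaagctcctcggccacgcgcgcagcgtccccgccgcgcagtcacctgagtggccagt
Lepr (chr4:101717656-101717905, plus strand): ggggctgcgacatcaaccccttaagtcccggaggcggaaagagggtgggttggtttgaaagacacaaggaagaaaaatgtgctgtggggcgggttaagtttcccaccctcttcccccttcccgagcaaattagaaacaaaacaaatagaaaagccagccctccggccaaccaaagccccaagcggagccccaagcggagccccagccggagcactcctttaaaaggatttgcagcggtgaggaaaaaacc

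TGACG, searched on both strands, was found in 17.8% of 32851 promoters of the same length in the mouse genome and in 3 of the 8 windows of the receptor genes, those of Adra2a and Vipr1 above and that of Adrb1, each with 1 copy. Calcrl and Lepr had none. The full element TGACGTCA (in 1.55% of promoters) and the glucocorticoid response element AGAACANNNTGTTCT (in 0.00913%) were in none of the 8 windows, which says only that these letters are not in the windows. The Vipr1 and Adra2a windows had a GC content of 72.8% and 67.6%, against 48.4% for Calcrl. Windows were found for 7 of the 9 genes, and Ramp2 and Nr3c1 were not searched.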

How the data were processed

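RNA of AMs from 3 CD44+/+ and 3 CD44-/- samples was sequenced as paired-end reads. Per the submitters' processing notes, STAR and the mm10 build were used for alignment, and the authors deposited FPKM values computed by Cufflinks. In the deposited table, values follow the gene identifier column and not the gene name column, whose order differs. The authors' Cuffdiff fold changes, p-values and q-values and their mean per genotype were not used. Of 24341 genes, 1 lacked a value and was left out. The 10800 genes averaging 0.5 FPKM or more were compared on log2(FPKM + 0.1) in R 4.3.3 with limma 3.58.1 (lmFit, eBayes with trend, two-sided, Benjamini-Hochberg over all genes), and an adjusted p under 0.05 was counted. The comparison was tested on simulated data. FPKM holds no read counts, so absolute depth is unknown, and relative depth was read from steps between values under 0.05 FPKM. Sums of FPKM were 487901 to 504182.

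The receptor genes and pathway lists were chosen with earlier results of these data known. Named were Cd44, the receptor genes, for each list the genes with an adjusted p under 0.05, the 3 most abundant and the 3 with the largest difference, the 2 genes most like each receptor gene, and the leading markers of each cell type. Of the genes under this rule, 1 is not reported here. No source says that same-numbered samples were collected together, but deviations from the genotype means correlated by 0.212, 0.132 and 0.211 across genes in replicates 1, 2 and 3, so the replicate number was used as a block in an alternative. Other alternatives were other pseudocounts, filters, scalings, no trend, and leaving out each sample. Positions were taken from GENCODE (mm10) and promoters from RefSeq.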

Additional observations from a re-analysis of the deposited data

How the results depend on the processing

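With the replicate number as a block, 9 genes had an adjusted p under 0.05 in place of 12, with 0 receptor genes and 0 pathway genes among them, and the block changed no other call reported here. Without a filter on low values 7 genes passed, and with each sample left out in turn 6 to 36 did: 36 without CD44+/+ replicate 1, 22 without CD44-/- replicate 1, 7 without CD44+/+ replicate 2 and 6 without CD44-/- replicate 2. For the receptor genes, which were chosen on these values, the following counts describe how the fit moves and are no test. Below an adjusted p of 0.05 there was 1 (Calcrl) among 12 genes of all tested after median-ratio scaling. After quantile normalization there was 1 (Calcrl) among 11 genes. With samples left out there were 0 to 2 (Adra2a and Lepr, among 36 genes, without CD44+/+ replicate 1). Of the pathway genes, 0 to 1 passed with samples left out (Nfkbia without CD44+/+ replicate 1, adjusted p = 0.0485, named after its value was seen). The causes were not tested. Over all alternatives the log2 difference ranged from -0.45 to -0.40 for Calcrl, 0.33 to 0.48 for Vipr1, 0.37 to 0.56 for Lepr, 0.56 to 1.53 for Adra2a and -0.07 to -0.04 for Nr3c1, while that of Ramp1 changed sign in 3, of Ramp3 in 1 and of Adrb1 in 3. Adra2a, with a mean of 0.953 FPKM, was not compared with a filter of 1 FPKM, and Ramp3 fell below the filter there and without CD44+/+ replicate 1, CD44+/+ replicate 3 or CD44-/- replicate 1, so that its sign was not followed in those alternatives. The difference in the Ramp1 to Calcrl ratio stayed between 0.996 and 1.16, and that in the Ramp1 share between -0.21 and 0.13 percentage points.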

Other observations

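Markers of other cells in the BAL were measured beside the receptor genes. Airway secretory markers, led by Scgb1a1, summed to 825 to 1351 FPKM in CD44+/+ AMs and 628 to 1066 FPKM in CD44-/- AMs, with all 7 markers above a mean of 0.5 FPKM. Neutrophil markers (6 of 6 found, S100a8 highest by mean) summed to 62.6 to 102 FPKM and 74.7 to 84.9 FPKM. Of the T cell markers found 1 of 7 (Cd2) exceeded 0.5 FPKM, of the fibroblast and smooth muscle markers 1 of 8 (Acta2, with Myh11 at 0 in all samples), of the dendritic cell and monocyte markers 3 of 10 and of the B cell markers 0 of 5. Across the 11 marker lists 0 genes had an adjusted p under 0.05 by limma. Their part in the levels of the receptor genes was not tested.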
